A study of Mus musculus with 6 samples.

Results

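RNAseq values for 7 NADPH oxidase genes were examined in gastrocnemius muscle, the large muscle of the calf, of 21-day-old mice. The genes were *Cybb*, *Cyba*, *Ncf1*, *Ncf4*, *Rac1*, *Rac2* and *Nox4*, chosen by symbol, and all 7 were found among the 23997 gene symbols of each library and passed the filter of a mean of at least 0.5 FPKM. The study compared 3 HrasG12V mice (Caggs-Cre+/HrasG12V/+, mice 2276, 2278 and 2279) with 3 WT littermates (Caggs-Cre-/HrasflG12V/+, mice 2277, 2280 and 2281), as a model of the activating *HRAS* mutations of Costello syndrome. The WT mice therefore also carried the floxed, unrecombined G12V allele, and lacked the Cre. The Cre transgene is driven by the CAG promoter, which is broadly active and not limited to muscle. Both parental lines had a mixed SWR/J, 129S1/SvImJ and C57BL/6J background, and all the mice were untreated. Whole muscle was sequenced, 1 library per mouse, and the values are FPKM, read counts scaled by transcript length and by library size.

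NADPH oxidases are membrane enzymes that carry electrons from NADPH to oxygen and so produce superoxide or hydrogen peroxide on purpose. The oxidase of phagocytes is assembled on demand: *Cybb* (gp91phox, also called NOX2) is the catalytic chain and *Cyba* (p22phox) its membrane partner. *Ncf1* (p47phox) and *Ncf4* (p40phox) are cytosolic and join the membrane pair upon activation, together with a GTP-bound Rac. The cells that express this complex include neutrophils, macrophages, dendritic cells and B cells. *Nox4* needs only *Cyba*, is constitutively active and is expressed by many non-blood cells. Which cells of the muscle held the transcripts of either oxidase was not tested. The DUOX enzymes are calcium-regulated and typical of epithelia.

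In the GENCODE vM21 annotation of GRCm38, *Cybb* lies at chrX:9435252-9487771, *Cyba* at chr8:122424776-122432930 and *Ncf1* at chr5:134220053-134229625, all on the minus strand. *Rac1* (chr5:143503634-143528036) and *Rac2* (chr15:78559167-78572783) are also on the minus strand. *Ncf4* (chr15:78244801-78262580), on the chromosome of *Rac2*, and *Nox4* (chr7:87246096-87398710) are on the plus strand.

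Sequence upstream of the transcription start was taken from RefSeq (GRCm38.p6), where 4 of the 7 members were matched. RefSeq and GENCODE place the starts of *Cybb* and *Nox4* differently, so that for these genes the RefSeq stretch lies inside the longer GENCODE gene. *Ncf4*, *Rac1* and *Rac2* were not matched in RefSeq. The last 120 bases before the start are shown on the gene's strand, because they set the phagocyte genes beside *Nox4*, and the capitals mark CG dinucleotides. None of the 4 stretches overlapped an annotated exon.
Cybb, chrX:9469325-9469444, minus strand: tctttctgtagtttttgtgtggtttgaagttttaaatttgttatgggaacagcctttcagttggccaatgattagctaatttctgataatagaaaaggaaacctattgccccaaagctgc
Ncf1, chr5:134229626-134229745, minus strand: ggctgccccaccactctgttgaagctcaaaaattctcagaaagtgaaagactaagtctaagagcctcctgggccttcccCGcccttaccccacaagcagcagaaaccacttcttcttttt
Cyba, chr8:122432941-122433060, minus strand: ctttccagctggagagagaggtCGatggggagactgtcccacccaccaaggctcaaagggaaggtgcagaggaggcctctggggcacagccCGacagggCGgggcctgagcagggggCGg
Nox4, chr7:87246529-87246648, plus strand: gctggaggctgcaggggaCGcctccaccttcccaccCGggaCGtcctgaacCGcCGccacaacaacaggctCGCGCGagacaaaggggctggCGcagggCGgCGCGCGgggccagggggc

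Over the 250 bases upstream, *Cybb* held 1 CG dinucleotide and *Ncf1* held 2, against 6 for *Cyba* and 20 for *Nox4*. The median of 32851 RefSeq promoters was 6. The GC content of the same 250 bases was 34.0% for *Cybb*, 54.4% for *Ncf1*, 60.0% for *Cyba* and 67.2% for *Nox4*, against a median of 52.4%. Sites for PU.1, the myeloid factor encoded by *Spi1*, were searched for only in the form GAGGAA. Both strands of 300 bases were searched, 50 of them after the start, and other forms of the site were not. Among the 4, GAGGAA was found at *Cybb* only, on the opposite strand and beginning 10 bases into the transcript. Of all promoters, 28.3% held it. The AP-1 site TGACTCA, present in 5.20% of all promoters, was in none of the 4. A match in letters is not evidence of binding, and the absence of a match says nothing about the factor.

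Differences between the libraries bear on every value below. Mouse 2276 stood apart from the other 5. Its summed FPKM was 814013, against 413020 to 547122 in the others, while the median of the 13359 genes tested was 6.39 to 6.64 in every library. In mouse 2276 the level of a gene followed the length of its transcript. Genes with a longest transcript of up to 1000 bases lay at a median of 0.74 above the WT mean on the log2(FPKM + 0.1) scale, and those over 6000 bases at -0.55. In mice 2278 and 2279 the medians of all length classes were between -0.12 and 0.01. Of the muscle fiber markers, *Mb*, *Pvalb* and *Ryr1* were abundant in all 6 libraries, while *Acta1*, *Myh4* and *Atp2a1* were listed at 0 in all of them and *Ckm* in 5. *Tnnt3* was listed at 0 in mouse 2276 alone, against 6893 to 10419 FPKM in the others, and *Myh1* in WT mice 2277 and 2280. A gene listed at 0 is therefore not shown to be absent. Sex, litter and batch are not given in the labels, and FPKM do not give the read depth of each library.

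In WT muscle the 7 genes spanned a wide range of FPKM, a scale that is already per transcript length. *Rac1*, the Rac of nearly every cell, had the highest level at 110.1 ± 4.36 FPKM (SD, n = 3). *Cyba* followed at 11.8 ± 0.410 (SD, n = 3), and the ranges of both stood clear of their neighbours. *Nox4* (1.35 ± 0.253), *Cybb* (1.19 ± 0.265), *Ncf1* (1.02 ± 0.0996) and *Rac2* (0.984 ± 0.192; all SD, n = 3) came next, and neighbours in this order overlapped from mouse to mouse. *Ncf4* was lowest at 0.541 ± 0.141 FPKM (SD, n = 3), below the range of *Rac2*. In HrasG12V muscle *Rac1* again stood clear, at 94.2 ± 13.1 FPKM (SD, n = 3), and the ranges of all other neighbours in the order overlapped. The coefficient of variation among WT mice ran from 3.47% (*Cyba*) to 26.1% (*Ncf4*). Among HrasG12V mice it ran from 13.9% (*Rac1*) to 78.4% (*Rac2*).

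**Figure D1:**
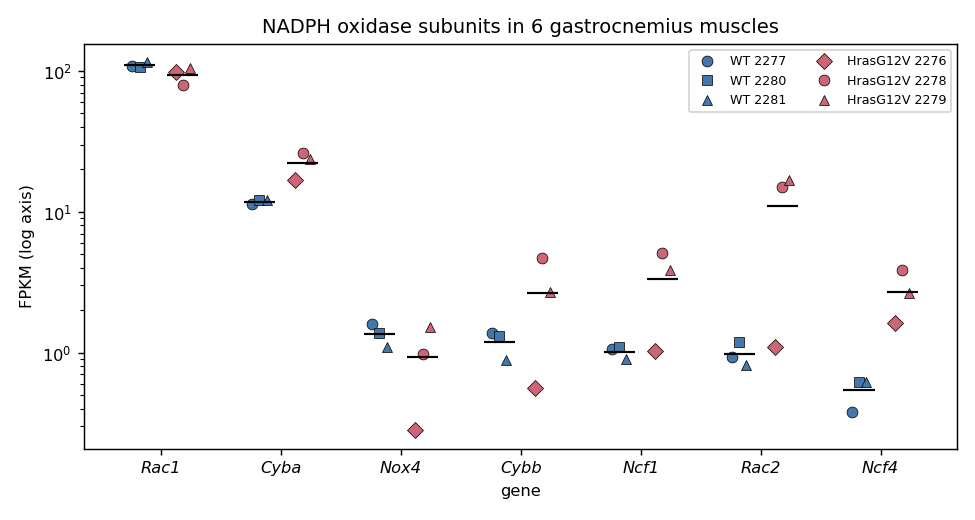
FPKM (log axis) of the 7 genes in each mouse, ordered by the WT mean, with WT mice in blue, HrasG12V mice in red and horizontal lines at the group means (n = 3). *Rac2* was at 14.9 and 16.8 FPKM in HrasG12V mice 2278 and 2279, while mouse 2276, at 1.09 FPKM, lay within the WT range of 0.820 to 1.19.

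With all 6 mice, 4 of the 7 genes had an unadjusted limma p below 0.05, and *Cyba*, *Ncf1*, *Ncf4* and *Rac2* were all higher in HrasG12V muscle. Of the 13359 genes tested, 5.18% were higher at this limit, 4.99% were lower and 10.2% differed in either direction. After Benjamini-Hochberg adjustment over all genes tested by limma, 0 of the 7 passed 0.05, as did 0.0599% of all genes. The outcome depended on mouse 2276. Without it, 5 of the 7 genes had a limma adjusted p below 0.05, *Cybb* in addition to the other 4, and all 5 were higher (5.37% of all genes were higher and 9.66% differed at this limit). The same 5 had an unadjusted p below 0.05, as did 29.8% of all genes. When mouse 2276 alone was set against the 3 WT mice, assuming that it varied as they did, *Cyba* and *Ncf4* were higher and *Nox4* lower at an adjusted limma p below 0.05, a limit that 31.4% of all genes passed. All log2 fold changes were taken from log2(FPKM + 0.1), so those of genes with low FPKM are too small. In bulk muscle, more cells of a type and more RNA per cell cannot be told apart.

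*Cybb*, the catalytic chain of the phagocyte oxidase, was at 1.38, 1.31 and 0.889 FPKM in WT mice 2277, 2280 and 2281. In HrasG12V mice 2276, 2278 and 2279 it was at 0.565, 4.67 and 2.70 FPKM. Mice 2278 and 2279 were above every WT mouse and mouse 2276 was below every one. The difference of 0.70 in mean log2 level had a standard error of 0.70 (limma adjusted p = 0.782), within the spread between mice. Without mouse 2276 it was 1.52 (standard error 0.31, limma adjusted p = 0.0466), and without mouse 2278 it was 0.10. Mouse 2276 alone lay 0.94 below the WT mean on the log2 scale (log2 difference -0.94), whereas genes with transcripts of 4000 to 6000 bases, the class of *Cybb* at 4752 bases, had a median of -0.21 there.

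*Cyba*, which stabilizes both *Cybb* and *Nox4* in the membrane, was at 11.3, 12.1 and 12.0 FPKM in WT mice 2277, 2280 and 2281. It was at 16.7, 26.0 and 23.9 FPKM in HrasG12V mice 2276, 2278 and 2279. The genotypes did not overlap, and 8.11% of all genes tested had the HrasG12V mice above the WT mice in this way. *Cyba* was higher by 0.88 on the log2 scale, with a standard error of 0.20 (limma adjusted p = 0.358, unadjusted p = 0.00407). Leaving out each mouse gave values from 0.75 to 1.07, and the unadjusted p was below 0.05 in all 6 of these sets. It was below 0.05 in 9 of the 10 other planned settings, and limma gave 0.0813 after scaling all libraries to an equal FPKM sum. *Cyba* has a short transcript of 744 bases. Its excess of 0.50 over the WT mean in mouse 2276 was smaller than the median of 0.74 for transcripts of that length. With the trend over length removed from each library, limma gave a log2 difference of 0.73, a standard error of 0.45 and an unadjusted p of 0.151.

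The cytosolic subunits differed in how mouse 2276 behaved. *Ncf4*, the p40phox subunit that binds phosphoinositide on phagosomes, was at 0.378, 0.623 and 0.621 FPKM in WT mice 2277, 2280 and 2281. In HrasG12V mice 2276, 2278 and 2279 it was at 1.61, 3.89 and 2.63 FPKM. The genotypes did not overlap, and mouse 2276 was above the WT mice. *Ncf4* was higher by 2.08 on the log2 scale, with a standard error of 0.38 (limma adjusted p = 0.288, unadjusted p = 0.00107). Leaving out each mouse gave 1.78 to 2.39, and the unadjusted p was below 0.05 under all of these and the 10 other settings planned. In mouse 2276 the excess was 1.44 on the log2 scale, against a median of 0.58 for transcripts of 1000 to 2000 bases, the class of *Ncf4* at 1464 bases. With the trend over length removed, limma gave a log2 difference of 1.98 and an unadjusted p of 0.00708.

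*Ncf1*, the organizer that bridges the cytosolic subunits to *Cyba* after phosphorylation, was at 1.06, 1.09 and 0.905 FPKM in WT mice 2277, 2280 and 2281. It was at 1.03, 5.12 and 3.88 FPKM in HrasG12V mice 2276, 2278 and 2279. Mice 2278 and 2279 were far above the WT range and mouse 2276 lay within it. *Ncf1* was higher by 1.36 on the log2 scale, with a standard error of 0.56 (limma adjusted p = 0.488, unadjusted p = 0.0472). Without mouse 2276 this was 2.03, with a standard error of 0.18 (limma adjusted p = 0.00558). In 5 of the 6 sets of 5 mice, those with mouse 2276, the unadjusted p was above 0.05. It was below 0.05 in 6 of the 10 other planned settings, and limma gave 0.0640 with the trend over length removed. Exons of *Ncf1* overlap *Gtf2ird2* on the opposite strand and those of *Rac1* overlap *Daglb*. Whether the counting used strand is not given in the sources used here.

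*Rac2*, the Rac of blood cells, was at 0.936, 1.19 and 0.820 FPKM in WT mice 2277, 2280 and 2281. It was at 1.09, 14.9 and 16.8 FPKM in HrasG12V mice 2276, 2278 and 2279, the largest coefficient of variation of the 7 genes. Mice 2278 and 2279 stood far above all other libraries, and mouse 2276 was within the WT range. *Rac2* was higher by 2.65 on the log2 scale, with a standard error of 0.99 (limma adjusted p = 0.477, unadjusted p = 0.0334). Without mouse 2276 this was 3.89, with a standard error of 0.18 (limma adjusted p = 0.00116). The unadjusted p was above 0.05 in each of the 5 sets of 5 mice that kept mouse 2276. It was below 0.05 in 8 of the 10 other planned settings, and limma gave 0.0409 with the trend over length removed.

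*Rac1*, which many cells use for the actin cytoskeleton and which can also serve the oxidase, was at 108, 107 and 115 FPKM in WT mice 2277, 2280 and 2281. In HrasG12V mice 2276, 2278 and 2279 it was at 98.2, 79.5 and 105 FPKM. Every HrasG12V mouse was below every WT mouse, as in 10.4% of all genes tested. The log2 difference was -0.23, with a 95% interval of -0.72 to 0.25 (limma adjusted p = 0.737), within the spread between mice. *Rac2* made up 0.707% to 1.10% of the summed FPKM of *Rac1* and *Rac2* in WT mice and 1.10% in mouse 2276, and 15.8% and 13.8% in mice 2278 and 2279. The mean log2 ratio of *Rac2* to *Rac1* was higher by 2.88 in HrasG12V muscle, -3.80 ± 2.22 against -6.68 ± 0.30 (SD, n = 3; exact two-sided permutation test, p = 0.1, the smallest that 3 against 3 allows). With a pseudocount of 0.01 this p was 0.2.

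**Figure D2:**
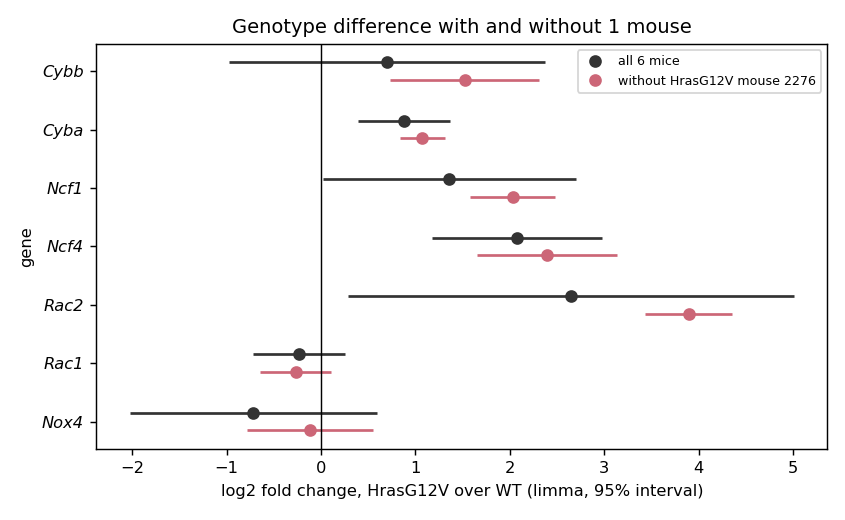
Log2 fold change of each gene, HrasG12V over WT, with its 95% limma interval, for all 6 mice (dark) and without HrasG12V mouse 2276 (red). Without that mouse the intervals of *Cybb*, *Cyba*, *Ncf1*, *Ncf4* and *Rac2* lie above 0, and those of *Rac1* and *Nox4* include it.

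*Nox4*, a catalytic chain of many non-blood cells, did not pass the limit in either direction with all 6 mice. In WT mice 2277, 2280 and 2281 its level was 1.59, 1.38 and 1.09 FPKM. In HrasG12V mice 2276, 2278 and 2279 it was 0.281, 0.981 and 1.53 FPKM. Mice 2276 and 2278 were below every WT mouse, and mouse 2279 was inside the WT range. The log2 difference was -0.72, with a 95% interval of -2.03 to 0.59 (limma adjusted p = 0.706). Without mouse 2276 it was -0.12, with a standard error of 0.26 (limma adjusted p = 0.800). In mouse 2276 *Nox4* lay at -1.92 from the WT mean, while genes with transcripts of 2000 to 4000 bases had a median of 0.13 (*Nox4*: 3921 bases). *Nox4* is near the upper edge of this class, and the next, 4000 to 6000 bases, had a median of -0.21. With the trend over length removed from each library, limma gave a log2 difference of -0.65 and an unadjusted p of 0.276.

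The catalytic subunits were set against each other within a library, which needs no scaling between libraries but does not remove a trend over transcript length. The 6 genes were *Cybb*, *Nox4*, *Nox1*, *Duox1*, *Duox2* and *Nox3*, and *Nox3* was listed at 0 in all 6 mice. Their summed level was 2.69 to 3.58 FPKM in WT mice, with *Nox4* at 40.4% to 44.4% and *Cybb* at 33.0% to 40.5% of the sum. In mouse 2278 the sum was 6.40 FPKM, with *Cybb* at 73.0% and *Nox4* at 15.3%. In mouse 2279 it was 4.88 FPKM, with *Cybb* at 55.3% and *Nox4* at 31.3%. In mouse 2276 the sum was lower than in any WT mouse, 1.65 FPKM, with *Cybb* at 34.3%, *Nox1* at 25.4%, *Duox1* at 21.8% and *Nox4* at 17.0%.

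The ratio of *Cybb* to *Nox4* FPKM was 0.867, 0.945 and 0.817 in WT mice 2277, 2280 and 2281 and 2.01, 4.76 and 1.76 in HrasG12V mice 2276, 2278 and 2279. *Nox4* was therefore the more abundant chain in each WT mouse and *Cybb* in each HrasG12V mouse. On the log2(FPKM + 0.1) scale the mean ratio was 1.24 ± 0.78 against -0.18 ± 0.09 (SD, n = 3), a difference of 1.42 (exact two-sided permutation test, p = 0.1, the smallest p possible). The difference was 0.97 to 1.65 when any single mouse was left out, and 0.89 with a pseudocount of 1. The 3 HrasG12V mice reached this order differently. In mice 2278 and 2279 *Cybb* was above the WT level, and in mouse 2276 both genes were below it, *Nox4* more so. The excess of *Cyba* over its partners also differed: the ratio of *Cyba* to *Cybb* plus *Nox4* was 3.82 to 6.09 in WT mice, 4.61 and 5.65 in mice 2278 and 2279, and 19.8 in mouse 2276.

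**Figure D3:**
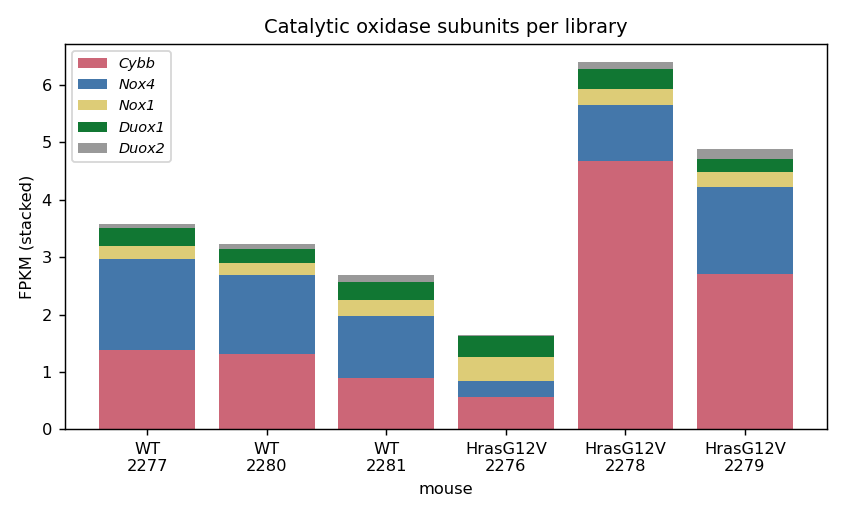
FPKM of the catalytic oxidase subunits stacked for each mouse (n = 1 library per bar). *Nox4* is the thicker part of *Cybb* and *Nox4* in the 3 WT bars, *Cybb* in the HrasG12V bars, and the sum is largest in mouse 2278 at 6.40 FPKM.

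The epithelial and colon-type oxidases were near the floor of the data. *Nox1*, the catalytic chain of colon epithelium, was at 0.239 ± 0.0311 FPKM in WT and 0.314 ± 0.0915 in HrasG12V muscle (SD, n = 3). *Duox1* was at 0.293 ± 0.0428 against 0.316 ± 0.0678 FPKM, and *Duox2* at 0.0910 ± 0.0257 against 0.104 ± 0.0724 (SD, n = 3). The ranges of the genotypes overlapped for all 3 genes. Of the 9 listed genes for NOX and DUOX enzymes and their partners, only *Noxo1*, *Duoxa1* and *Poldip2* passed the filter on low values, and 0 of these 3 had an unadjusted limma p below 0.05, a limit that 10.2% of all genes passed. *Poldip2*, a partner of *Nox4*, ranged from 62.3 to 71.0 FPKM among WT mice and was 98.7, 48.1 and 49.5 FPKM in HrasG12V mice 2276, 2278 and 2279. Mouse 2276 was above every WT mouse and the other HrasG12V mice were below every one. The log2 difference was -0.12, and -0.46 without mouse 2276 (limma adjusted p = 0.0554).

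Of 4 other listed proteins of the phagocyte oxidase and its assembly, *Hvcn1*, *Cybc1* and *Nrros* had an unadjusted limma p below 0.05 and were higher, as were 5.18% of all genes. The median log2 fold change over the 4 was 0.75, against -0.03 over all genes tested. None of the 4 passed adjustment with all 6 mice, and the same 3 were higher with a limma adjusted p below 0.05 without mouse 2276, as were 5.37% of all genes. *Hvcn1*, the proton channel that balances the charge moved by the oxidase, had the largest difference of the 4. It was at 0.410 ± 0.0762 FPKM in WT and at 0.489, 4.70 and 4.19 FPKM in HrasG12V mice 2276, 2278 and 2279 (log2 fold change 2.18, standard error 0.80). *Cybc1*, a chaperone of the *Cybb* and *Cyba* pair listed under its older symbol, was higher by 0.64 on the log2 scale, and *Nrros*, which promotes breakdown of the *Cybb* protein, by 0.86 (standard errors 0.20 and 0.36). *Rap1a*, a small GTPase found with the membrane pair in many cells, was at 23.6 ± 0.799 against 25.3 ± 3.18 FPKM (SD, n = 3; log2 fold change 0.09, standard error 0.17).

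**Figure D4:**
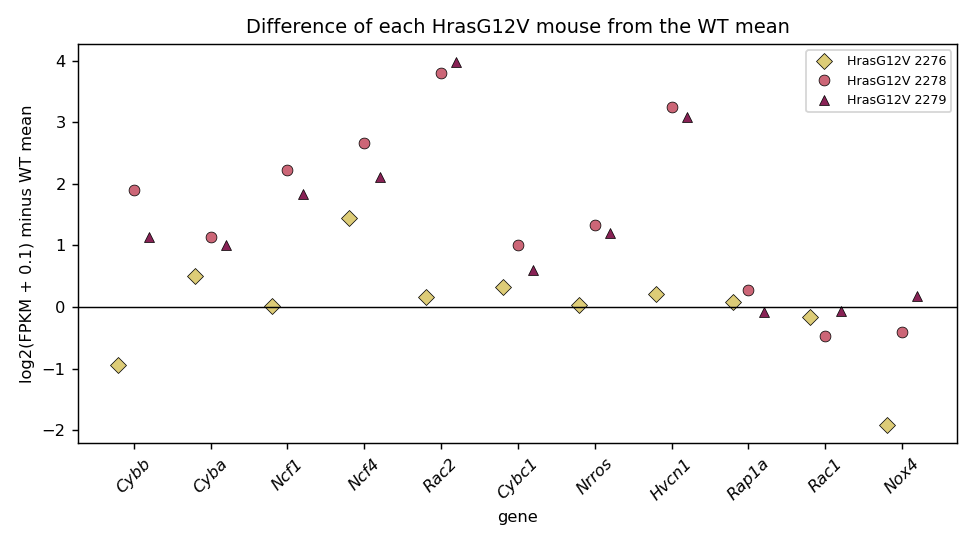
Difference of each HrasG12V mouse from the mean of the 3 WT mice on the log2(FPKM + 0.1) scale, for the 7 members and 4 other proteins of the phagocyte oxidase. Mice 2278 and 2279 lie together and high for most genes, up to 3.81 and 3.98 for *Rac2*, and mouse 2276 lies farthest from 0 at *Nox4* (-1.92), *Ncf4* (1.44) and *Cybb* (-0.94).

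*Rac3* and genes that load Rac with GTP or hold it in the cytosol formed a list of 11. With all 6 mice 1 of them had an unadjusted limma p below 0.05, a share near the 10.2% of all genes. It was *Arhgdib*, a GDP dissociation inhibitor of blood cells. It was at 10.5 ± 0.308 FPKM in WT and at 14.1, 46.3 and 33.6 FPKM in HrasG12V mice 2276, 2278 and 2279 (log2 difference 1.41, limma adjusted p = 0.417). Without mouse 2276, 3 of the 11 were higher with a limma adjusted p below 0.05 (5.37% of all genes), *Arhgdib* and the blood cell exchange factors *Vav1* and *Dock2*, the last pair by 2.99 and 3.22 on the log2 scale. The log2 fold changes of the others, *Rac3*, *Vav2*, *Vav3*, *Prex1*, *Tiam1*, *Tiam2*, *Dock1* and *Arhgdia*, lay between -0.28 (*Vav3*) and 0.30 (*Arhgdia*) with all 6 mice.

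Among 7 kinases that act on oxidase subunits or upstream of them, *Prkcb* was higher and *Prkca* lower at an unadjusted limma p below 0.05, a limit that 10.2% of all genes passed. *Prkcb*, a protein kinase C that phosphorylates *Ncf1* protein in phagocytes and B cells, was at 0.378 ± 0.0515 FPKM in WT and at 0.395, 4.22 and 3.14 FPKM in HrasG12V mice 2276, 2278 and 2279 (log2 fold change 2.00, standard error 0.81). *Prkca*, the isoform abundant in muscle, was at 14.6 ± 2.13 FPKM in WT and at 6.38, 8.60 and 8.17 FPKM in the same HrasG12V mice. The genotypes did not overlap, with mouse 2276 the lowest (log2 difference -0.91, limma adjusted p = 0.318). Without mouse 2276, *Prkcb*, *Prkcd*, *Syk* and *Pik3cg* were higher and *Prkca* lower with a limma adjusted p below 0.05, as 9.66% of all genes were in either direction.

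Other enzymes that produce superoxide or hydrogen peroxide, *Xdh*, *Aox1*, *Maoa* and *Maob*, had 0 of 4 genes with an unadjusted limma p under 0.05 (10.2% of all genes). The median of their log2 fold changes was -0.23. Of 12 genes that remove these products, *Gpx1* and *Gpx3* were higher at the same unadjusted limit (log2 fold changes 0.82 and 0.98, limma adjusted p = 0.454 and 0.382), as were 5.18% of all genes, and none was lower. For *Gpx1* mouse 2276 lay farthest above the WT mean, by 1.36, and without it the log2 difference was 0.54 (limma adjusted p = 0.0678). Without mouse 2276, 4 of the 12, *Sod2*, *Prdx2*, *Prdx3* and *Prdx5*, were lower with a limma adjusted p below 0.05, as were 4.3% of all genes. Mouse 2276 was above the WT mean for *Prdx2* (0.82) and *Prdx5* (0.98) on the log2 scale.

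The pan leukocyte, B cell, T cell, neutrophil, and monocyte and dendritic cell sums were high in mice 2278 and 2279. The summed FPKM of 8 pan leukocyte genes was 24.0 to 27.0 in WT mice, 33.1 in mouse 2276, and 142 and 128 in mice 2278 and 2279. The sum of 6 B cell genes was 0.655 to 1.19 in WT mice, 1.37 in mouse 2276, and 81.9 and 65.7 in mice 2278 and 2279, and that of 7 T cell genes was 0.869 to 1.10, 1.23, 37.3 and 47.7. *Ms4a1* and *Cd8a* were listed at 0 in mouse 2276. The sum of 11 neutrophil genes was 2.76 to 6.19 in WT mice, 24.3 in mouse 2276, and 144 and 58.1 in mice 2278 and 2279. Most of the neutrophil sum of mouse 2276 was *S100a8* and *S100a9*, at 9.06 and 10.1 FPKM. Both were above every WT mouse there, as were, at lower FPKM, *Ngp*, *Camp*, *Retnlg*, *Cxcr2* and *Mmp8*. *Elane* and *Csf3r* lay within the WT range in mouse 2276. *Mpo* and *Ltf* were listed at 0 in it, as they were in some WT mice. The sum of 6 monocyte and dendritic cell genes was 1.95 to 3.21 in WT mice, 1.41 in mouse 2276, and 15.7 and 11.6 in mice 2278 and 2279. The macrophage sum of 10 genes was 90.8 to 109 in WT mice and 115, 242 and 128 in mice 2276, 2278 and 2279. *Lyz2*, which neutrophils also express, held much of it, at 29.9 to 34.1 FPKM in WT mice and 28.1, 122 and 60.6 in mice 2276, 2278 and 2279. In mouse 2278 all of the 10 but *Mertk* were above every WT mouse, and *Mertk* (3.21 FPKM) was below every one. In mouse 2279, 3 of the 10 (*Adgre1*, *Mrc1* and *Cd163*) were below every WT mouse, 3 (*Cd68*, *C1qa* and *Lyz2*) were above every one and the other 4 lay within the WT range. In mouse 2276 *C1qa*, *C1qb* and *C1qc* were above every WT mouse. *Adgre1*, *Cd163*, *Mertk* and *Lyz2* were below every one there, and the rest lay within the WT range. The fibroblast sum was 1991 to 4557 FPKM in WT mice and 804, 3464 and 941 in mice 2276, 2278 and 2279, and the endothelial sum 130 to 161, 98.7, 121 and 121. The part of these cells in the oxidase values was not tested.

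**Figure D5:**
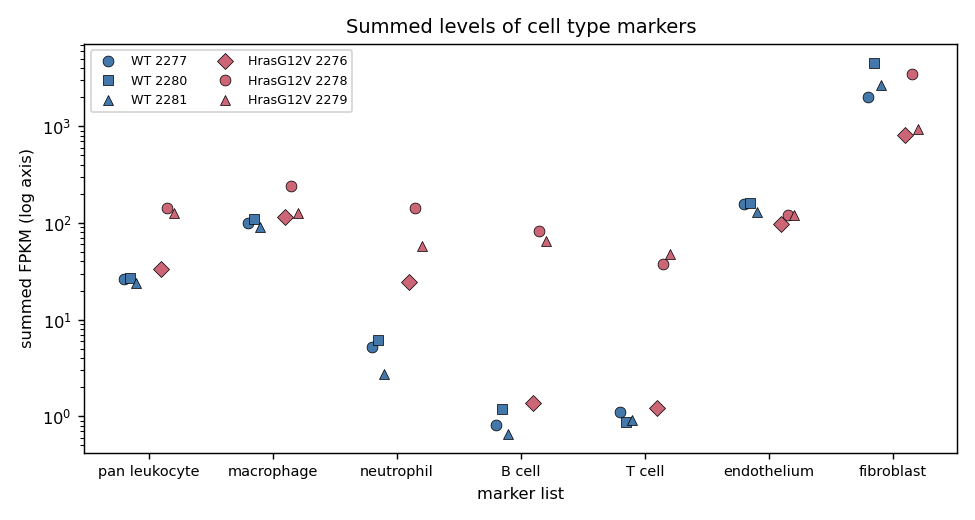
Summed FPKM (log axis) of 7 lists of cell type markers in each mouse, with WT in blue and HrasG12V in red. The B cell and T cell sums of mice 2278 and 2279 lie far above all other mice, while the macrophage sums span 90.8 to 242 FPKM.

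The members were then expressed relative to the mean log2 level of each marker list in the same library, as a description. Relative to macrophage markers, *Cybb* was 1.09 and 1.13 above the WT mean in mice 2278 and 2279 and 0.79 below it in mouse 2276 (log2 difference -0.79). *Rac2* was 2.99 and 3.97 above it in mice 2278 and 2279, and *Ncf4* was 1.59, 1.85 and 2.11 above it in mice 2276, 2278 and 2279. Relative to pan leukocyte markers, *Cybb* was at -0.94, -0.75 and -1.28 and *Ncf1* at 0.01, -0.43 and -0.58 in mice 2276, 2278 and 2279. *Cyba* was at 0.49, -1.52 and -1.41, *Ncf4* at 1.44, 0.01 and -0.30 and *Rac2* at 0.15, 1.15 and 1.56. Relative to neutrophil markers, *Cybb*, *Cyba*, *Ncf1* and *Ncf4* were below the WT ratio in mice 2278 and 2279, from -1.01 for *Ncf4* to -3.01 for *Cyba*, and *Rac2* was at -0.33 and 0.85. Relative to T cell markers all 5 were below it in these mice, from -0.74 for *Rac2* to -3.89 for *Cyba*. Relative to B cell markers, *Cybb*, *Cyba*, *Ncf1*, *Ncf4* and *Rac2* were all below the WT ratio in mice 2278 and 2279, from -1.50 for *Rac2* in mouse 2279 to -4.64 for *Cyba* in mouse 2278.

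The profile of each member over the 6 libraries, centred on its own mean, was compared with those of all other tested genes with a mean of at least 1 FPKM. The measure was the root mean square difference on the log2 scale over 6 libraries, which share their depth and scaling. *Rac2* was closest to *Hmha1* (0.11), *Itgal* (0.11) and *Coro1a* (0.16), of which the last pair act at the leukocyte surface and cytoskeleton. *Cybb* was closest to *Tnfrsf14* (0.15), *C2* (0.16), a complement component, and *Themis2* (0.17). *Ncf1* was closest to *Aim2* (0.11), *Fgd2* (0.15) and *Cd40* (0.17), and *Ncf4* to *Ccl8* (0.24), *Dok3* (0.26) and *Hs6st2* (0.27). *Cyba* was closest to *Mapk11* (0.07), *Mob3a* (0.07) and *Unc93b1* (0.09). *Nox4* was closest to *Acss3* (0.10), *Ston1* (0.13) and *Ern1* (0.14), and *Rac1* to *Pigb*, *Prmt10* and *1700094J05Rik*, each at 0.05. Among the members themselves the nearest pair was *Cybb* and *Ncf1* (0.39) and the most distant *Rac1* and *Rac2* (1.94).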

How the data were processed

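The authors prepared stranded mRNA libraries from total RNA, sequenced single-end reads, mapped them with TopHat and made FPKM with Cufflinks and Cuffnorm, which scales libraries to each other. The deposited values used here are these FPKM, 1 per gene symbol and library, and the submitters' processing notes name GRCm38 and mm10 without tool versions. Ratios of values under 0.2 FPKM between libraries did not fall on steps (at most 3.64% of genes shared an interval of 0.01 log2), so whole reads were not recovered, no count model was used, and the depth of each library cannot be read from these values. The spread between mice gives the precision.

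From the deposited FPKM, log2(FPKM + 0.1) was computed for the 13359 genes whose mean reached 0.5 FPKM. The fit used limma 3.58.1 under R 4.3.3, with variance moderation along the mean, no covariate and Benjamini-Hochberg adjustment over all of them and a limit of 0.05. The study's methods name an unpaired test on FPKM, and the fit without moderation is an alternative. The 7 members and all gene lists were chosen with earlier results of these data known, so lists got counts and medians and no set test. Genes named are the members, genes of the lists, and the 3 genes nearest each member. *Ly6g* was not among the symbols, and 1 listed gene is not reported here. Positions and transcript lengths came from GENCODE vM21 on GRCm38, with a length for 99.3% of genes tested. Python 3.11.15, pandas 2.3.3 and matplotlib 3.10.9 served for all other steps. Alternatives were other pseudocounts, filters, scalings, moderation, library weights and leaving out each mouse. The fit of mouse 2276 alone against WT and the removal of the length trend were added after the data were seen.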

Additional observations from a re-analysis of the deposited data

How the results depend on the processing

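No paired analysis was possible because the groups share no replicate numbers: each mouse has a number of its own. The direction of all 7 log2 fold changes held under the planned settings. The fit of mouse 2276 alone and the removal of the length trend were chosen after seeing the data. With mouse 2276 alone against the 3 WT mice, where the lone sample is assumed to vary like the others, that of *Cybb* reversed, to -0.94. The number of members with an unadjusted limma p below 0.05, 4 with all mice, was 1 after scaling all libraries to an equal FPKM sum, 2 without moderation, 2 with the trend over transcript length removed, and 2 to 5 with each mouse left out. The number with an adjusted p below 0.05, 0 with all mice, was 4 with array weights, 3 for mouse 2276 alone (where 31.4% of all genes passed), and 0 to 5 with each mouse left out, the 5 without mouse 2276. Among all genes, 1358 had an unadjusted p below 0.05. This was 717 with the same total, 3042 with array weights, 6312 for mouse 2276 alone, and 606 to 3979 with each mouse left out. Those with an adjusted p below 0.05, 8 in number, were 5 with a pseudocount of 1, 1 without moderation, 572 with array weights, 4200 for mouse 2276 alone, and 7 to 1291 with each mouse left out. Of the 25 tested genes in the 4 lists of oxidase partners and regulators, 6 had an unadjusted p below 0.05. This was 1 with the same total, 2 without moderation, 13 with array weights, 10 for mouse 2276 alone and 2 to 13 with each mouse left out. After adjustment it was 0, but 8 with array weights, 6 for mouse 2276 alone, and 0 to 11 with each mouse left out. Over the planned settings the lowest limma adjusted p was 0.0466 for *Cybb*, 0.00561 for *Cyba*, 0.00558 for *Ncf1*, 0.0138 for *Ncf4* and 0.00116 for *Rac2*, each without mouse 2276, and the highest was over 0.9 for all 5. The cause of these shifts was not tested.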
